A study of Mus musculus with 42 samples.

Results

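The 10 genes described here, Eln, Fbn1, Fbn2, Fbln1, Fbln5, Lox, Loxl1, Emilin1, Mfap4 and Mfap5, encode proteins of the elastic fibre and of its microfibrils. They were picked by symbol, and 14 of the 34891 array probes with a gene symbol carried one of these names, so they are 10 of 21186 genes. Total RNA from 3 aorta and 3 skeletal muscle samples of each of 7 groups was hybridized to 42 single-colour Agilent arrays, 1 per sample, on 11 slides. All mice were male and entered the study at 18 to 20 weeks of age. The healthy group (G) was C57BL/6. The diabetic group (A) was KK/Ay, a strain that becomes obese and diabetic on its own, and the macroangiopathy group (C) was KK/Ay fed a high-fat diet, with L-NAME, which blocks nitric oxide synthases, at 0.2 mg/ml in drinking water for 8 weeks. Mice of that model were then gavaged for 8 weeks with SHENQI compound (B), with its yangyinyiqi formula (D), with its huoxue formula (E) or with rosiglitazone (F), an agonist of the nuclear receptor PPAR gamma, while groups G, A and C received saline. Every group apart from the healthy one was of the KK/Ay strain, so strain and diabetes cannot be told apart in a comparison with healthy mice. Whether aorta and muscle came from the same mice is not stated.

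Elastic fibres give the wall of large arteries its recoil. Tropoelastin, the product of Eln, is laid down on microfibrils of fibrillin (Fbn1, Fbn2) with the help of fibulins (Fbln5, with Fbln1 as a component of mature fibres), and it is crosslinked by the copper enzymes lysyl oxidase (Lox) and lysyl oxidase-like 1 (Loxl1). Emilin1 lies between elastin and microfibril, and Mfap4 and Mfap5 are microfibril-associated proteins. In aorta these genes are made mainly by smooth muscle cells and fibroblasts, and in skeletal muscle by the connective tissue between the fibres.

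The results turn on a few probes, each a 60-base oligonucleotide whose position is given by the array files on mouse build mm9. Loxl1 (chr9:58138570-58138629, minus strand) and Emilin1 (chr5:31222545-31223001, plus strand, 60 bases over a span of 457 bases and so across an exon junction) are shown whole. Each is the only measure of its gene, as the probes of Eln and Mfap4 are of theirs. For the other probes the first 30 bases are shown, 5′ to 3′: Eln (chr5:135179129-135179188, minus), Mfap4 (chr11:61302096-61302155, plus), the first Fbln1 probe (chr15:85115854-85115914, plus), the second Fbln1 probe (chr15:85115998-85116057, plus), and the 3 Fbln5 probes, in order chr12:102988189-102988248, chr12:102984878-102984937 and chr12:103002702-103002761, all minus. Both Fbln1 probes and all 3 Fbln5 probes are shown because they gave unequal values for 1 gene. Exon and UTR annotation of mm9 was not used here.
Loxl1: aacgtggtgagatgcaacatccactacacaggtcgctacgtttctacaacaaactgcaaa
Emilin1: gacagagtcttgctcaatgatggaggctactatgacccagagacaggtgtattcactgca
Eln: ataccggaagccttgacgatggatttggtg
Mfap4: acttggtcccctacttgccctagcgatcgt
Fbln1, first probe: aattttgttcccttttctacctgtgagcta
Fbln1, second probe: ttttttaaccaacggggctctttgtgtttc
Fbln5, first probe: gcccagtttttacgaagaccccttaatcat
Fbln5, second probe: agacaaaactagaacatgacctcttttagt
Fbln5, last probe: ctcccagaaagttaaattcctagatagtca

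Levels are log2 of the background-corrected, quantile-normalized intensity, averaged over the probes of a gene, so they compare arrays for 1 gene and not genes with each other. Across the arrays the share of probes well above background ran from 62.9% to 77.6% in aorta and had a lowest value of 53.8% in muscle, under huoxue. No member had a saturated spot. Fbn2, the fibrillin of developing tissue, was well above background on 5 of 21 aorta arrays and 1 of 21 muscle arrays, and on all 3 arrays of no group, so it was not tested and 9 members were. Its levels lay between 5.05 and 5.99 in aorta and between 5.06 and 6.71 in muscle. Emilin1 was well above background on all 21 aorta arrays and on 11 muscle arrays, none of them from the SHENQI or huoxue group, so its muscle levels are close to the lower bound of the measurement. Of the Fbln5 probes, the first was measured above background on each of the 42 arrays, the second on 19 aorta arrays and no muscle array, and the last on none, so the mean over the 3 probes understates changes of Fbln5.

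One aorta array stood apart before any comparison. Healthy aorta replicate 1 had the lowest level of the 21 aorta arrays in Eln, Fbn1, Fbln1, Fbln5, Loxl1, Mfap4 and Mfap5. Its mean over 6 smooth muscle genes (Myh11, Acta2, Tagln, Cnn1, Smtn, Lmod1) was 9.66, against 13.4 and 12.4 in healthy replicates 2 and 3 and 12.4 to 14.6 in the 18 KK/Ay aorta arrays. In a whole tissue, fewer cells of a type and less RNA per cell cannot be told apart, and the part of smooth muscle content in the results was not tested. The aorta differences of Fbln1 and Lox, and those of Fbln5 and Mfap4 in the macroangiopathy group, are therefore given with and without that array. Other results that use healthy aorta include it unless a sentence says otherwise. Among the 21 muscle arrays, healthy replicate 3 had the lowest level of Fbln1, Fbln5 and Mfap4. Its smooth muscle mean, 9.35, was also the lowest of the muscle arrays, and its mean over 5 macrophage markers, 9.53, was the highest. Results that use healthy muscle include that array unless a sentence says otherwise. The 6 skeletal muscle genes averaged 16.3 to 16.8 on the muscle arrays and 7.45 to 15.3 on the aorta arrays. The part of that spread in the results was not tested, and 5 of the 6 smooth muscle genes were higher in aorta.

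**Figure D1:**
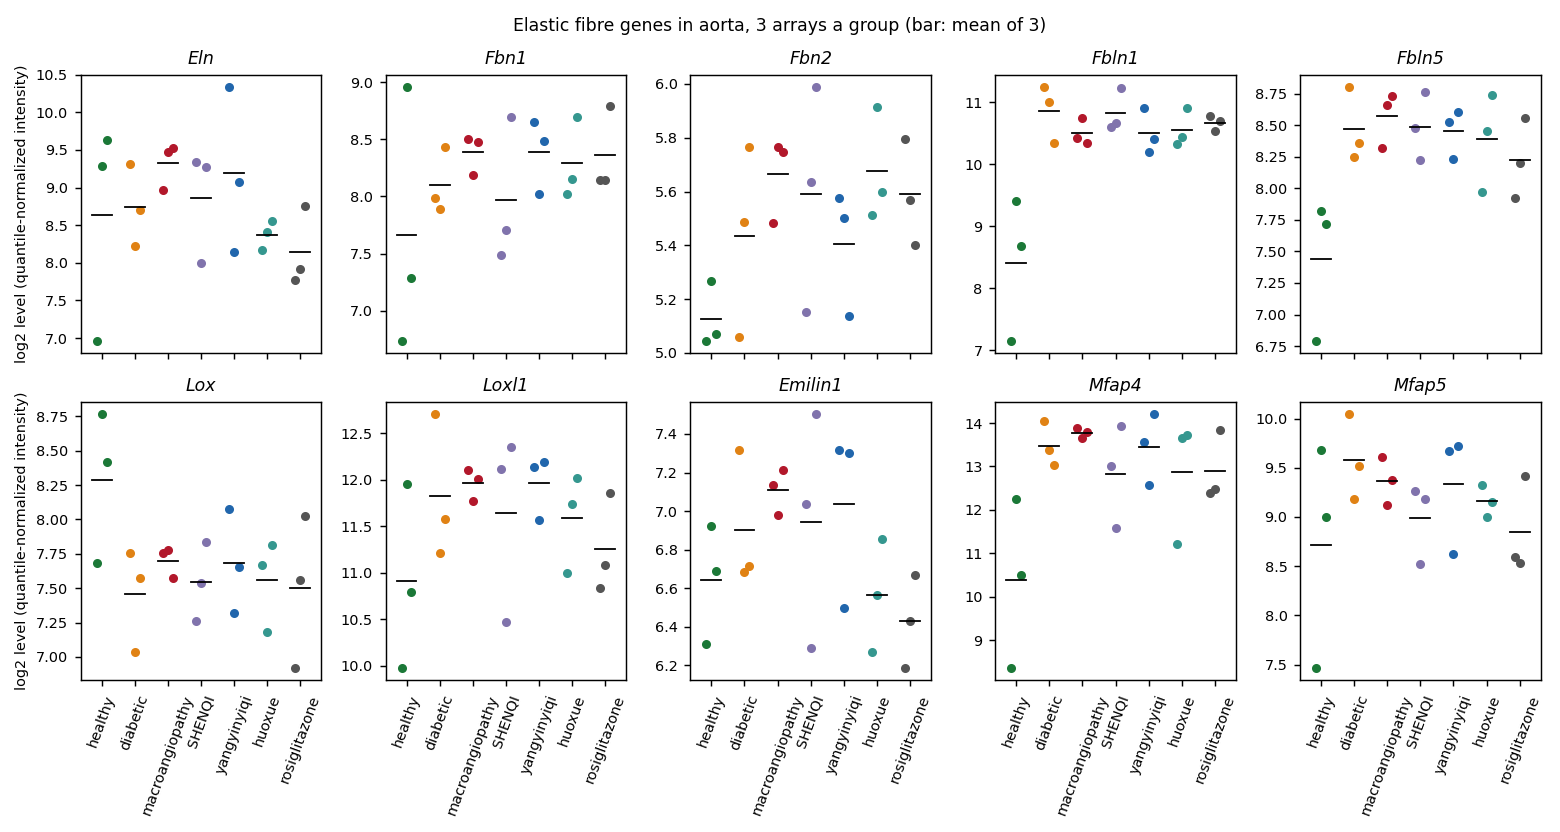
Levels of the 10 elastic fibre genes in aorta. The y axis is log2 of the quantile-normalized intensity, each point is 1 array, bars are the means of 3 arrays, and y axes differ between panels. All 3 healthy arrays of Fbln1 and Fbln5 lie below the 18 others, and healthy replicate 1 is the lowest point in 8 panels.

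Aorta and skeletal muscle were compared first, over all 42 arrays. Of the 9 members tested, 6 were higher in aorta at an adjusted p below 0.05 in limma's moderated test and none was lower. As 76.4% of all genes tested differed between the tissues, that share says little about these genes by itself. Mfap4 was 6.49-fold higher in aorta (log2 difference 2.70 ± 0.27, SE, adjusted p = 1.79e-11), and its aorta level exceeded its muscle level in the means of all 7 groups. Eln was 3.57-fold higher (1.84 ± 0.19, adjusted p = 2.85e-11), Loxl1 3.38-fold (1.75 ± 0.17, adjusted p = 5.4e-12), Fbln1 2.27-fold and Fbln5 2.12-fold. Emilin1 was 1.53-fold higher, with its muscle level near the lower bound.

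The other 3 members did not pass. Fbn1, the main fibrillin of adult tissue, differed by 0.24 ± 0.14 (adjusted p = 0.12), Mfap5 by 0.27 ± 0.15 (adjusted p = 0.0937) and Lox by -0.03 ± 0.10 (adjusted p = 0.765). The median of the 9 members was 1.09, against 0.03 over all genes tested. The gap between the group means of the tissues is given as a description. For Mfap4 it was 0.96 in healthy mice and 2.55 to 3.55 in the 6 KK/Ay groups, and for Loxl1 it was 0.65 in healthy mice and 1.32 to 2.35 in the others. Both healthy gaps include healthy aorta replicate 1, the lowest aorta array of these 2 genes. Without it the macroangiopathy gap exceeded the healthy one by 1.58 for Mfap4 and by 1.19 for Loxl1. With all arrays neither passed as a tissue difference against healthy mice. For Eln the gap was smallest under rosiglitazone and huoxue, at 1.09 and 1.14, and largest in the macroangiopathy and yangyinyiqi groups, at 2.47 in both. Among the genes of the pathway outside the 10, 13 of 23 other elastic fibre and microfibril genes were higher in aorta and 3 were lower, led by Ltbp2, a latent TGF-beta binding protein, at 4.03 ± 0.16, by Thsd4, a microfibril-associated protein, at 3.91 ± 0.24, and by Ltbp4 at 1.76 ± 0.22. Of 14 elastin-degrading enzymes and inhibitors tested, 9 were higher in aorta and 1 was lower. Among those higher were the metalloproteinase inhibitors Timp2 at 1.18 ± 0.15 and Timp3 at 1.17 ± 0.14. With 76.4% of all genes tested differing between the tissues, neither list count says much by itself.

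The comparisons with healthy mice ask what the diabetic strain, without or with the macroangiopathy protocol, changes. They share the 3 healthy arrays of each tissue, so they are not independent of each other. Fbln1 was higher and Lox lower in both. In diabetic against healthy mice, over both tissues, 2 of 9 members passed (Fbln1 higher, Lox lower) where 4.5% of all genes did. In the macroangiopathy group the same 2 members passed, against 5.17% of all genes.

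Fbln1, a fibulin found in mature elastic fibres, had the clearest rise. In aorta its levels were 7.15, 9.41 and 8.68 in healthy mice, 11.25, 11.01 and 10.34 in diabetic mice and 10.43, 10.75 and 10.34 in the macroangiopathy group. The 18 KK/Ay arrays ran from 10.19 to 11.25, with a median of 10.63, and none overlapped the healthy ones. In muscle the healthy levels were 8.43, 8.57 and 7.61, and the 18 KK/Ay arrays ran from 8.61 to 9.68 with a median of 9.36, again above every healthy array. Of all 16176 genes, 4.38% did not overlap in this way in aorta, 8.26% in muscle, and 1.03% in both tissues with 1 direction, and Fbln1 was the only member among the last. In aorta Fbln1 was 5.46-fold higher in diabetic mice (2.45 ± 0.49, adjusted p = 0.0307), the 1 member of 9 that passed there, against 2.22% of all genes. In the macroangiopathy group it was 4.26-fold higher (2.09 ± 0.47, adjusted p = 0.0315). In muscle the differences were 1.30 ± 0.49 and 1.11 ± 0.47, with adjusted p = 0.287 and 0.329.

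Without healthy aorta replicate 1 the aorta differences of Fbln1 became 1.82 (adjusted p = 0.0223) and 1.46 (adjusted p = 0.023). Over the 12 fits that each left out 1 array, the adjusted p in aorta ran from 0.00856 to 0.112 in diabetic mice and from 0.00571 to 0.125 in the macroangiopathy group, and passed in 5 fits of each. It was lost without healthy aorta replicate 3 and without any 1 of the 6 diabetic or the 6 macroangiopathy arrays, while the difference stayed at 1.82 or more and 1.46 or more. Over both tissues it passed in 12 of 12 and 7 of 12, and was lost in the macroangiopathy group without any 1 of its aorta arrays or without muscle replicate 1 or 3 (highest adjusted p = 0.0694). Where healthy arrays shared a slide with KK/Ay arrays, the difference was 3.33 for 1 diabetic array and 2.68 for 1 SHENQI array in aorta on slide 1, 1.54 for 2 SHENQI aorta arrays on slide 2, and 0.83 for 2 rosiglitazone muscle arrays on slide 3.

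The Fbln1 probes, whose sequences are printed above, gave unequal differences. The first rose by 2.94 ± 0.44 in diabetic aorta (adjusted p = 0.00654) and by 2.51 ± 0.42 in the macroangiopathy group (adjusted p = 0.00985). The second differed by 1.96 ± 0.54 (adjusted p = 0.097) and 1.68 ± 0.53 (adjusted p = 0.0819). Within an array, the second probe minus the first was 0.57 to 1.23 in healthy aorta and 0.60 to 0.65 in healthy muscle, against -0.21 to 0.37 in the 18 KK/Ay aorta arrays and -0.40 to 0.05 in the 18 KK/Ay muscle arrays. The gap between the 2 probes thus separated the strains without overlap in both tissues, and the size of the Fbln1 difference depends on the probe. The position given for the first probe spans 61 bases for a 60-base probe, and that of the second spans 60. The reason for the extra base was not examined. Whether the strains differ in sequence under a probe or in transcript form was not tested, so the 5.46-fold and 4.26-fold values are differences in probe signal averaged over both probes.

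Lox, the main enzyme that crosslinks elastin and collagen, went the other way. In muscle it was at 8.78, 8.76 and 9.01 in healthy mice, at 7.35, 7.15 and 7.59 in diabetic mice and at 7.33, 7.45 and 7.76 in the macroangiopathy group. All 18 KK/Ay muscle arrays, from 7.06 to 7.90 with a median of 7.55, lay below the healthy ones. The level was 2.80-fold lower in diabetic muscle (-1.48 ± 0.28, adjusted p = 0.0264) and 2.52-fold lower in the macroangiopathy group (-1.34 ± 0.24, adjusted p = 0.0229). Lox was the 1 member of 9 that passed in muscle in each comparison, where 1.45% and 1.56% of all genes passed. With slide as a random block the diabetic call was lost (-1.55, adjusted p = 0.168) and the macroangiopathy call was not (-1.33, adjusted p = 0.0472), and with quantiles made within tissue the diabetic call was lost too (adjusted p = 0.0513).

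In aorta Lox was at 7.68, 8.77 and 8.42 in healthy mice, and the 18 KK/Ay arrays, from 6.92 to 8.08, overlapped the lowest of these, which was replicate 1. The differences there were -0.83 ± 0.28 (adjusted p = 0.154) and -0.59 ± 0.24 (adjusted p = 0.169), and without healthy replicate 1 they passed at -1.14 (adjusted p = 0.0278) and -0.89 (adjusted p = 0.0165). Over both tissues the Lox difference was -1.16 ± 0.21 in diabetic mice (adjusted p = 0.0108) and, in the macroangiopathy group, -0.96 ± 0.20 (adjusted p = 0.0209). Without healthy aorta replicate 1 these values were -1.33 (adjusted p = 0.000957) and -1.14 (adjusted p = 0.00109), while the second was lost without macroangiopathy muscle replicate 1 or 2 (highest adjusted p = 0.0557). In muscle the call passed in 6 of 12 and in 7 of 12 fits that left out 1 array, with differences from -1.60 to -1.38 and from -1.46 to -1.24. It was lost in diabetic mice without any 1 of the 6 muscle arrays (highest adjusted p = 0.124), and in the macroangiopathy group without healthy muscle replicate 1 or 3 or any 1 macroangiopathy muscle array (highest adjusted p = 0.132). On slide 3, which held 2 healthy and 2 rosiglitazone muscle arrays, the rosiglitazone arrays were at 7.65 and 7.86 and the healthy ones at 8.78 and 8.76, a difference of -1.02. Of 6 macrophage markers, 5 were tested. In muscle their median difference was -0.75 in diabetic mice and -0.79 in the macroangiopathy group, with 2 lower at an unadjusted p below 0.05 and none after adjustment in each. The mean of these markers was 8.46, 8.38 and 9.53 in the healthy muscle arrays, and both medians include the last, replicate 3. Of 6 adipocyte markers, 2 were lower in muscle after adjustment in each comparison and 1 was higher in diabetic mice, with medians of -0.58 and -0.85. In the 21 aorta arrays Lox had a correlation of 0.54 with the mean of the adipocyte markers and 0.73 with that of the 4 brown adipocyte markers, given as a description. The mean of the brown adipocyte list was 14.99 in healthy, 13.83 in diabetic and 13.84 in macroangiopathy aorta. In aorta 1 of its 4 genes was lower after adjustment in each comparison and 0 were higher, with median differences of 0.11 and -0.06. In muscle, where Lox was called lower, the median of the brown adipocyte markers was 0.83 in diabetic mice and 0.61 in the macroangiopathy group. There 1 was higher at an unadjusted p below 0.05 in each, none was lower and none passed after adjustment. The part of these lists in the Lox result was not tested.

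Fbln5, which tethers elastin to cells and microfibrils, and Mfap4 were higher in aorta of the macroangiopathy group. There 3 of 9 members passed (Fbln1, Fbln5 and Mfap4), all higher, where 6.15% of all genes passed. With slide as a random block, with the processed signal or with the 6 aorta arrays alone none of the 3 passed, and the slide block gave adjusted p = 0.0926, 0.0938 and 0.0965. Fbln5 was at 6.79, 7.82 and 7.71 in healthy aorta, at 8.80, 8.25 and 8.36 in diabetic aorta and at 8.32, 8.66 and 8.73 in the macroangiopathy group, and none of the 18 KK/Ay arrays (7.92 to 8.80) overlapped the healthy ones. The rise was 1.13 ± 0.25 in the macroangiopathy group (2.19-fold, adjusted p = 0.0301), and the diabetic value was 1.03 ± 0.26 (adjusted p = 0.0752). The first Fbln5 probe, the bright one, rose by 2.96 ± 0.53 (adjusted p = 0.0141) and by 2.79 ± 0.59 (adjusted p = 0.0358), so that the call in diabetic aorta depends on whether the dim probes are averaged in. In the macroangiopathy group the Fbln5 call passed in 7 of 12 fits that left out 1 array and was lost without aorta replicate 2 or 3 or any 1 muscle array of that group (highest adjusted p = 0.122), and it was 0.81 (adjusted p = 0.0224) without healthy aorta replicate 1. In muscle the Fbln5 differences were 0.17 ± 0.26 and -0.07 ± 0.25.

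Mfap4 had the widest range of any member. It was at 8.37, 12.25 and 10.51 in healthy aorta, at 14.05, 13.37 and 13.03 in diabetic aorta and at 13.88, 13.66 and 13.79 in the macroangiopathy group. The 18 KK/Ay arrays ran from 11.22 to 14.20, so healthy replicate 2 lay within their range. Mfap4 was 10.6-fold higher in the macroangiopathy group (3.40 ± 0.80, adjusted p = 0.0351), and the diabetic value was 3.11 ± 0.82 (adjusted p = 0.082). Without healthy aorta replicate 1 the macroangiopathy difference was 2.40 (adjusted p = 0.0393), and without the arrays of slides 1, 3 and 11, which leaves healthy replicate 2 alone in aorta, it was 1.52 (adjusted p = 0.308). Of the 12 fits that left out 1 array 5 passed, and the call was lost without healthy aorta replicate 3 or any 1 macroangiopathy array (highest adjusted p = 0.122). Muscle values overlapped, with 9.80, 10.26 and 8.19 in healthy mice and 9.50 to 10.78 in the KK/Ay arrays. In aorta the smooth muscle genes moved with Mfap4 and Fbln5. All 6 were higher in the macroangiopathy group at an unadjusted p below 0.05, 2 of them after adjustment, with a median difference of 2.59, and their median was 1.93 in diabetic mice. All 4 red cell genes were also higher in the macroangiopathy aorta at an unadjusted p below 0.05, 3 of them after adjustment, and the part of either list was not tested. The share of all genes at that unadjusted threshold is not given for aorta or muscle against healthy mice, so such counts say little by themselves. Over the 21 aorta arrays the correlation with the smooth muscle mean, given as a description, was 0.96 for Mfap4, 0.94 for Fbln5, 0.81 for Fbln1 and -0.02 for Lox, and 0.92, 0.86, 0.49 and -0.03 without healthy replicate 1. Of 6 fibroblast markers, 3 were higher in aorta at an unadjusted p below 0.05 in each comparison and none after adjustment, with medians of 0.65 in diabetic and 0.71 in macroangiopathy mice. With their mean the correlation was 0.88 for Fbln1, 0.86 for Fbln5 and 0.83 for Mfap4, and 0.65, 0.67 and 0.62 without healthy replicate 1. The part of the fibroblast list was not tested either. In the plot against smooth muscle genes, Mfap4 rises with their mean.

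**Figure D2:**
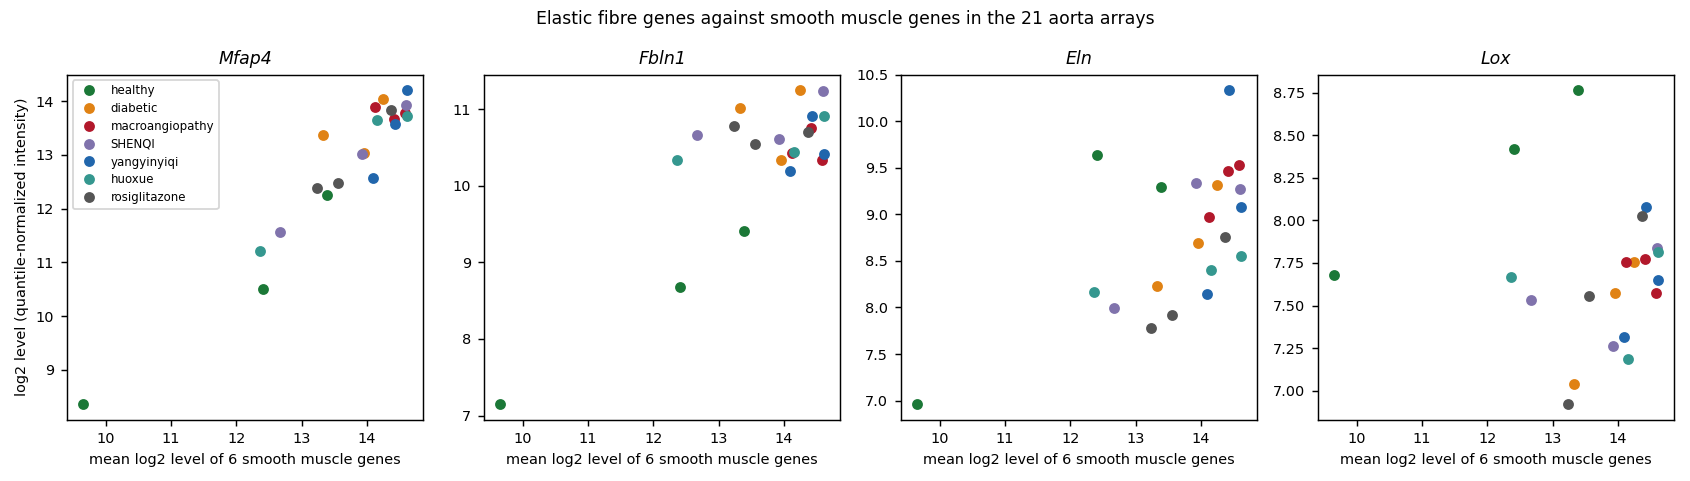
Levels of Mfap4, Fbln1, Eln and Lox (y axis, log2 of the quantile-normalized intensity) against the mean log2 level of 6 smooth muscle genes (x axis) in the 21 aorta arrays, coloured by group. Healthy replicate 1 is the point near 9.66 on the x axis.

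The remaining members did not pass against healthy mice in either tissue. Eln was at 6.96, 9.29 and 9.64 in healthy aorta, at 9.31, 8.23 and 8.70 in diabetic aorta and at 8.97, 9.47 and 9.53 in the macroangiopathy group, so the groups overlapped. Its differences were 0.11 ± 0.57 (adjusted p = 0.943) and 0.69 ± 0.55 (adjusted p = 0.482). In the macroangiopathy aorta Loxl1 differed by 1.06 ± 0.38 (adjusted p = 0.121) and Emilin1 by 0.47 ± 0.18 (adjusted p = 0.145), both at an unadjusted p below 0.05. Without healthy aorta replicate 2, which had the highest Loxl1, Fbln5 and Mfap4 of the healthy arrays, Loxl1 passed at 1.58 (adjusted p = 0.00413), and in diabetic aorta Fbln5 passed at 1.22 (adjusted p = 0.0344) and Mfap4 at 4.05 (adjusted p = 0.0126). Each passed in only 1 of the 12 fits that left out 1 array, and that fit keeps healthy replicate 1. Without replicate 1 instead, these differences were 0.59, 0.70 and 2.10, and that of Emilin1 in the macroangiopathy aorta was 0.30. Fbn1 and Mfap5 differed by 0.73 ± 0.44 and 0.65 ± 0.50 in the macroangiopathy aorta. In aorta 8 of the 9 members had a positive difference in both comparisons, with medians of 0.87 and 0.73 against 0.02 and 0.01 over all genes, and without slides 1, 3 and 11 that number was 3 in diabetic and 6 in macroangiopathy mice. The count of 8 also leans on healthy replicate 1. Against the other healthy aorta arrays, the mean of Eln was not higher in either group, and that of Fbn1 was not higher in diabetic mice. In muscle the medians were -0.04 and -0.09, against 0.03 over all genes in both.

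**Figure D3:**
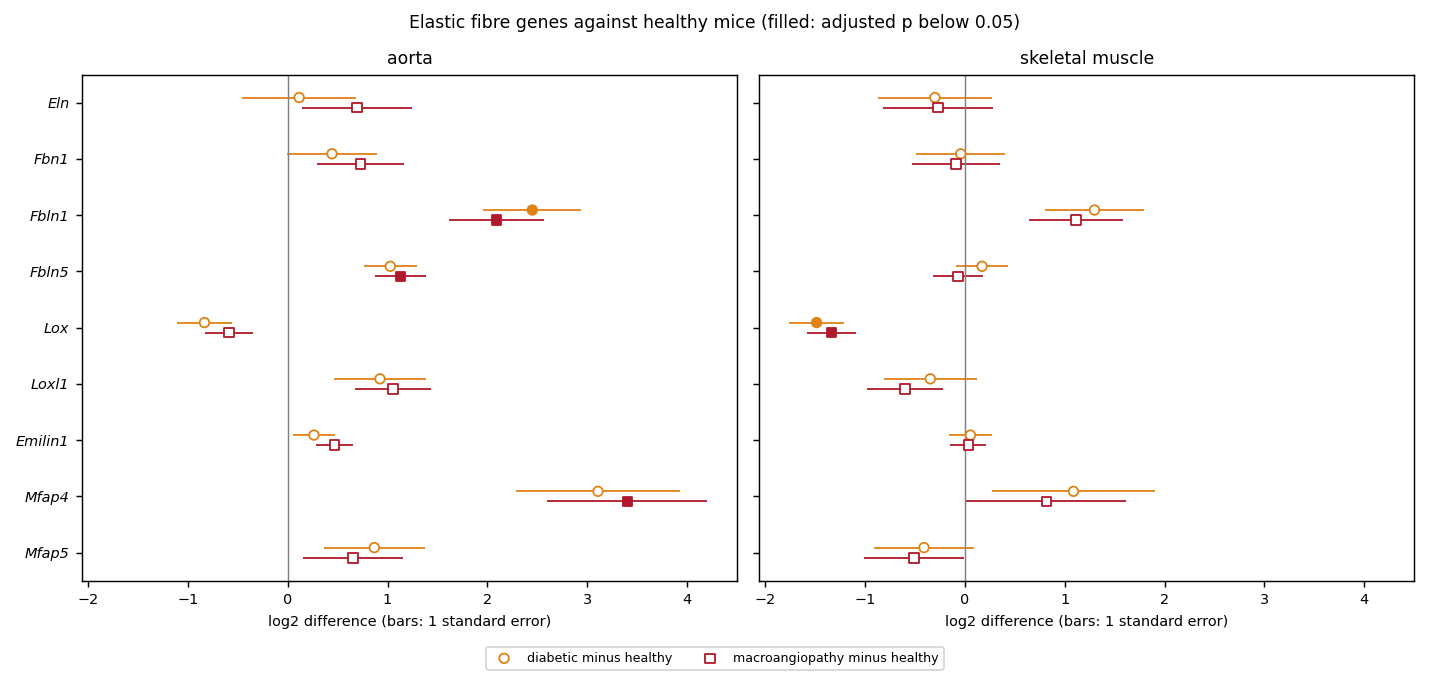
Log2 differences of the 9 tested members in diabetic (circles) and macroangiopathy (squares) mice against healthy mice, in aorta and in skeletal muscle. Bars are 1 standard error and filled symbols passed an adjusted p of 0.05: Fbln1 in aorta and Lox in muscle in both comparisons, and Fbln5 and Mfap4 in the aorta of the macroangiopathy group.

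Whether the change against healthy mice differed between the tissues was tested as an interaction. None of the 9 members passed in diabetic mice, where 0.0743% of all genes did, or in the macroangiopathy group, where 0.108% did. At an unadjusted p below 0.05 there was 1 member in diabetic mice (Fbln5) against 7.13% of all genes, and 3 in the macroangiopathy group (Fbln5, Loxl1 and Mfap4) against 12.4%. The largest value was that of Mfap4, 2.59 ± 1.13 (adjusted p = 0.387). A larger change of Fbln1 in aorta, or of Lox in muscle, was therefore not shown: their tissue differences were 0.98 ± 0.67 and 0.75 ± 0.34 in the macroangiopathy group.

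Among the other 23 elastic fibre and microfibril genes, 1 was higher in diabetic aorta and 6 were higher in the macroangiopathy aorta at an adjusted p below 0.05, and none was lower. Fbln2, a fibulin of vessel walls, was higher in both, at 2.43 ± 0.46 (adjusted p = 0.0242) and 1.86 ± 0.42 (adjusted p = 0.0315). In the macroangiopathy group the largest were Thsd4 at 2.71 ± 0.57 (adjusted p = 0.0245), Fbln2, and Ltbp1, a latent TGF-beta binding protein of microfibrils, at 1.74 ± 0.35 (adjusted p = 0.0215). None passed in muscle in either comparison, where 1 was higher and 1 lower in diabetic mice and 1 higher and 2 lower in the macroangiopathy group at an unadjusted p below 0.05. Of the elastin-degrading enzymes and inhibitors, 0 of 12 tested passed in diabetic aorta (5 higher and 1 lower at an unadjusted p below 0.05) and 2 of 14 passed in the macroangiopathy aorta, both inhibitors and both higher: Timp3 at 1.97 ± 0.41 (adjusted p = 0.0241) and Cst3, an inhibitor of cysteine cathepsins, at 1.20 ± 0.21 (adjusted p = 0.013). Over both tissues, 0 passed as higher and 1 as lower of 12 tested in diabetic mice, where 4.5% of all genes passed. In the macroangiopathy group 2 passed as higher and 1 as lower of 14, where 5.17% of all genes passed. The lower one was Mmp9, an elastin-degrading gelatinase, at -0.96 ± 0.23 in diabetic mice (adjusted p = 0.0401) and -0.94 ± 0.22 in the macroangiopathy group (adjusted p = 0.0321).

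The macroangiopathy and diabetic groups are both KK/Ay and differ in diet and L-NAME. No member passed between them in either tissue, over both or in the tissue difference, where 0.0318% of all genes passed in aorta and 0% in each of the others. At an unadjusted p below 0.05 there was 1 member in aorta, Eln, at 0.58 ± 0.24 (adjusted p = 0.609), against 7.73% of all genes. There were 0 members over both tissues against 5.12%, 0 in muscle against 2.87% and 0 in the tissue difference against 4.38%. The Eln arrays of the 2 groups overlapped, since diabetic replicate 1 was at 9.31.

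**Figure D4:**
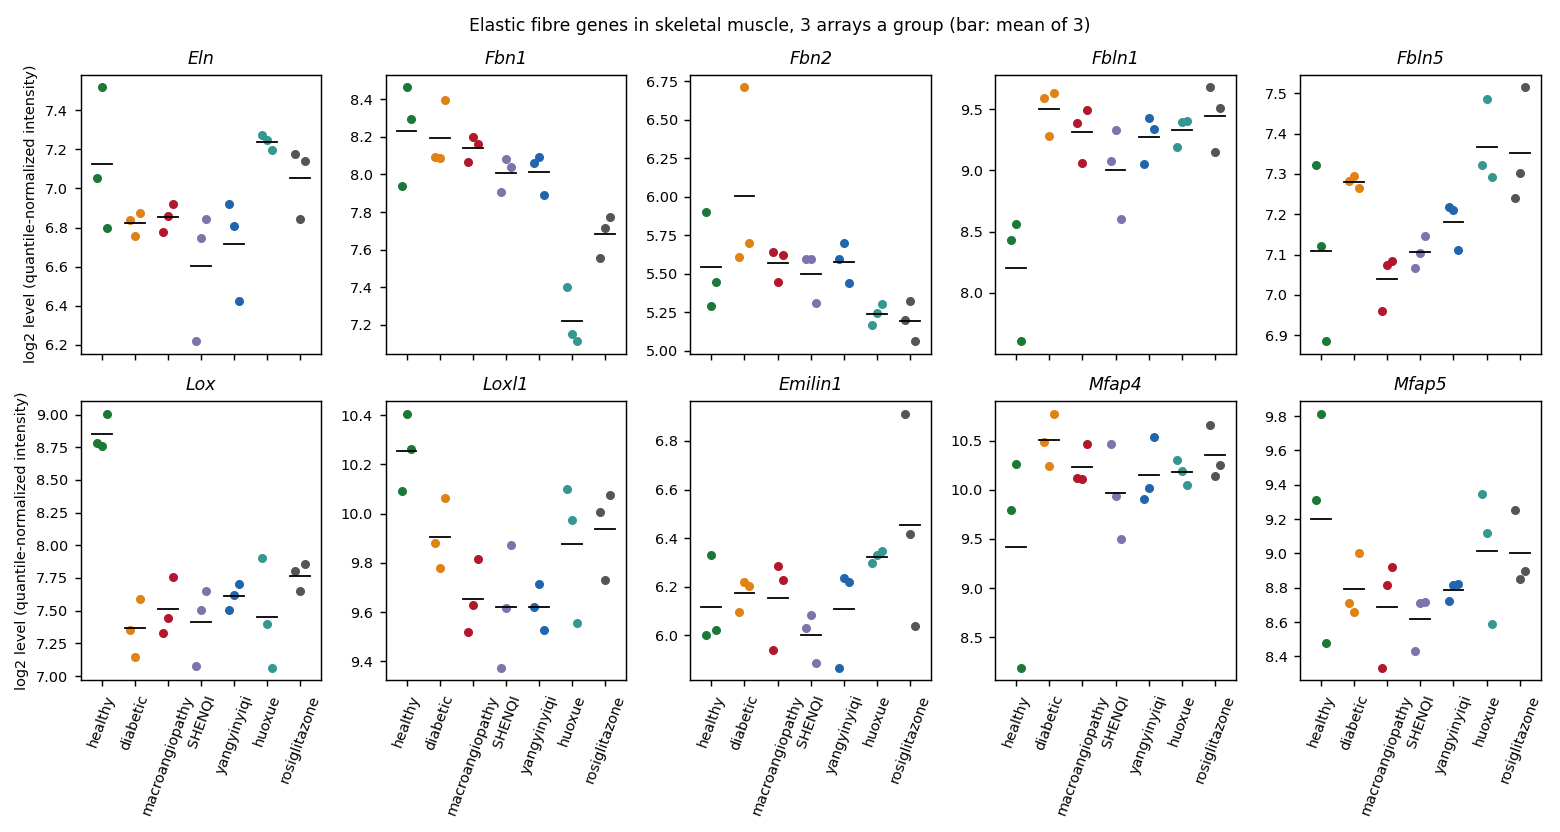
Levels of the 10 elastic fibre genes in skeletal muscle. The y axis is log2 of the quantile-normalized intensity, each point is 1 array, bars are the means of 3 arrays, and y axes differ between panels. The 3 healthy arrays of Lox lie above and those of Fbln1 below all 18 KK/Ay arrays, and the 3 huoxue arrays of Fbn1 are lower than the macroangiopathy arrays.

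The treated groups were each compared with the same 3 macroangiopathy arrays per tissue. No member passed under SHENQI compound or the yangyinyiqi formula. With SHENQI, 0 of 9 passed after adjustment in each contrast, where 0% of all genes did, and 0 of 9 had an unadjusted p below 0.05 over both tissues (2.71% of all genes), in aorta (4.67%), in muscle (1.14%) or in the tissue difference (1.92%). With yangyinyiqi, again 0 of 9 passed where 0% of all genes did, and 0 of 9 had an unadjusted p below 0.05 over both tissues (3.4%), in aorta (3.9%), in muscle (1.81%) or in the tissue difference (1.84%). The widest aorta difference under SHENQI was that of Mfap4, -0.94 ± 0.47, whose arrays were at 13.01, 11.57 and 13.92. Under yangyinyiqi no aorta difference was wider than that of Mfap4, -0.33 ± 0.33. The standard errors of the 9 members in aorta reached 0.47 under SHENQI and 0.42 under yangyinyiqi, and a difference of that size is within its own error.

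Eln was low in the aorta of huoxue and rosiglitazone mice. It was at 8.17, 8.41 and 8.55 under huoxue and at 7.77, 7.91 and 8.75 under rosiglitazone, all below the macroangiopathy arrays at 8.97, 9.47 and 9.53. The 3 macroangiopathy aorta arrays were on slide 6. The huoxue and rosiglitazone ones were on slides 9 and 10, so slide and treatment cannot be told apart in aorta. Under yangyinyiqi, Eln was at 10.33 on slide 6 and at 8.15 and 9.08 on slide 9. Within slide 9, yangyinyiqi minus huoxue was 0.33 for Eln. In the order of group means in aorta, Eln stood at 9.32 ± 0.31 (SD, n = 3) in the macroangiopathy group, 9.19 ± 1.10 under yangyinyiqi, 8.86 ± 0.76 under SHENQI, 8.75 ± 0.55 in diabetic mice, 8.63 ± 1.45 in healthy mice, 8.37 ± 0.20 under huoxue and 8.15 ± 0.53 under rosiglitazone, and every neighbouring pair in this order lay within their SDs. The difference from the macroangiopathy group was -0.95 ± 0.15 under huoxue (unadjusted p = 7.83e-05 in limma, adjusted p = 0.503) and -1.18 ± 0.24 under rosiglitazone (unadjusted p = 0.000551, adjusted p = 0.174), and neither passed over all genes. Without rosiglitazone aorta replicate 3 the second was -1.48 (adjusted p = 0.0167), and it passed in only 1 of the 12 fits that left out 1 array (highest adjusted p = 0.451). In muscle Eln went the other way, with 7.28, 7.25 and 7.19 under huoxue and 6.78, 6.86 and 6.92 in the macroangiopathy group, a difference of 0.39 ± 0.15 (adjusted p = 0.14).

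The tissue difference of Eln under huoxue, -1.33 ± 0.21 (adjusted p = 0.0102), was the 1 of 9 members that passed, where 3.05% of all genes did. Under rosiglitazone 0 of 9 passed where 1.51% of all genes did, and Eln had -1.38 ± 0.34 (adjusted p = 0.0793), or -1.68 (adjusted p = 0.0233) without rosiglitazone aorta replicate 3. The Eln value passed in only 1 of the 12 fits that left out 1 array. At an unadjusted p below 0.05 there were 5 members under rosiglitazone (Eln, Emilin1, Fbln5, Loxl1 and Mfap5), all with a lower aorta than muscle difference, against 16.6% of all genes. All 3 huoxue muscle arrays and 1 rosiglitazone muscle array were on slide 11, which held no array of another group, so slide and huoxue muscle cannot be told apart. The huoxue muscle arrays had 53.8% to 57.3% of their probes well above background. When all 42 arrays were fitted at once, the Eln tissue difference of -1.33 had an adjusted p of 0.476, and a batch term for slides 1, 3 and 11 in that fit made it -1.07 (adjusted p = 0.999).

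In the aorta of huoxue mice 0 of 9 members passed after adjustment, where 0% of all genes did, and 2 (Eln and Emilin1, both lower) had an unadjusted p below 0.05, against 4.75%. Over both tissues 0 passed, where 0% of all genes did, and 1 (Fbn1) had an unadjusted p below 0.05, against 14.3%. In the aorta of rosiglitazone mice 0 of 9 passed, where 0% did, and 4 (Eln, Emilin1, Loxl1 and Mfap4, all lower) had an unadjusted p below 0.05, against 11.6%. Emilin1 differed by -0.68 ± 0.21 (adjusted p = 0.259), Loxl1 by -0.70 ± 0.23 (adjusted p = 0.293) and Mfap4 by -0.87 ± 0.32 (adjusted p = 0.34). Without rosiglitazone aorta replicate 3, Mfap4 passed at -1.34 (adjusted p = 0.0262) and Loxl1, lower as well, at an adjusted p of 0.0331. Each passed in only 1 of the 12 fits that left out 1 array, with highest adjusted p = 0.577 for Mfap4 and 0.499 for Loxl1. The median over the 9 members was -0.52, against -0.03 over all genes. The 6 smooth muscle genes had medians of -0.70 under huoxue and -0.59 under rosiglitazone in the same arrays, and their part in these values was not tested. Of the other 23 elastic fibre and microfibril genes, 1 was higher and 8 were lower in rosiglitazone aorta at an unadjusted p below 0.05 and none passed after adjustment. Over both tissues 0 members passed under rosiglitazone, where 0.00631% of all genes did, and 0 had an unadjusted p below 0.05, against 12%.

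Fbn1 was low in huoxue muscle. Its levels were 7.40, 7.15 and 7.11, below the macroangiopathy arrays at 8.07, 8.20 and 8.16 and below every other muscle array. It was 1.89-fold lower (-0.92 ± 0.17, adjusted p = 0.0079), the 1 of 9 members that passed in huoxue muscle, where 10.6% of all genes did. Both Fbn1 probes were lower, by -0.81 ± 0.17 and -1.03 ± 0.20, although the second was well above background on 1 of the 3 huoxue arrays. In rosiglitazone muscle Fbn1 was at 7.56, 7.72 and 7.77, a difference of -0.46 ± 0.17 (adjusted p = 0.17). There 0 of 9 members passed, where 3.5% of all genes did, and Fbn1 was the 1 member at an unadjusted p below 0.05, against 18.5%. The first rosiglitazone array was on slide 11 and the others on slide 3. In the fit of all 42 arrays the huoxue difference had an adjusted p of 0.103, and a batch term for slides 1, 3 and 11 brought it to -0.19 (adjusted p = 1). Of the other pathway genes, only Mmrn2, an endothelial EMILIN-family protein, passed in huoxue muscle, at -0.43 ± 0.12 (adjusted p = 0.038).

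**Figure D5:**
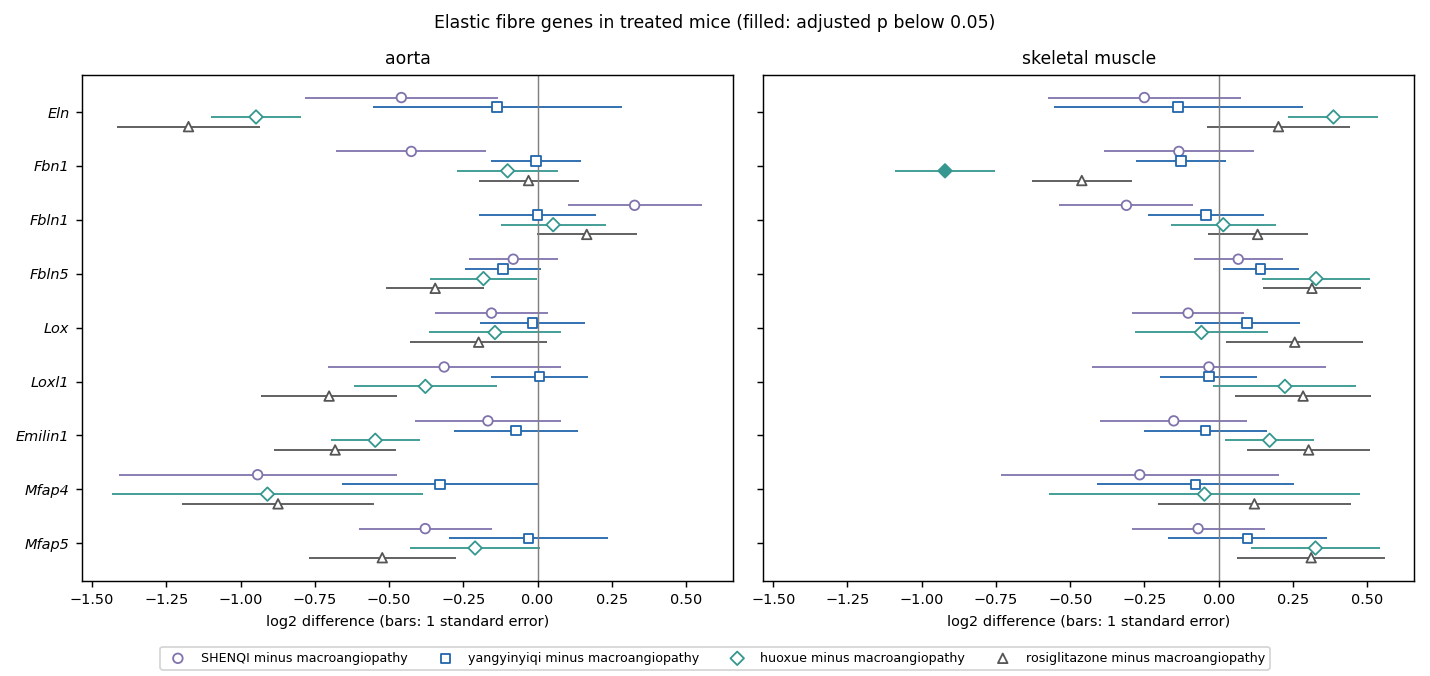
Log2 differences of the 9 tested members in the 4 treated groups against the macroangiopathy group, in aorta and in skeletal muscle. Bars are 1 standard error, and the single filled symbol, Fbn1 under huoxue in muscle, passed an adjusted p of 0.05.

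Over the 21 aorta arrays, the profile of Eln was set against 12665 other genes well above background on all of them. The 5 most like it were Scaf1 (r = 0.86, rho = 0.79), Golgb1 (r = 0.85, rho = 0.82), Anapc2 (r = 0.84, rho = 0.87), 9030425E11Rik (r = 0.84, rho = 0.76) and Sema3b (r = 0.84, rho = 0.85). They share the arrays, the slides and the RNA quality of Eln, and these values are a description without a test. Among the members, over all arrays pooled, Emilin1 was most like Eln (r = 0.81), then Mfap5 (r = 0.76) and Loxl1 (r = 0.72), and Fbln1 least (r = 0.33). Without healthy replicate 1 and yangyinyiqi replicate 1, the arrays farthest from the median of Eln, the value was 0.80 for Emilin1, 0.63 for Mfap5, 0.61 for Loxl1 and -0.27 for Fbln1. With group means removed the order was another, with Mfap5 at 0.84, Fbln5 at 0.81, Emilin1 at 0.75, Loxl1 at 0.73, Fbln1 at 0.72 and Fbn1 lowest at 0.54, so that the place of Fbln1 depends on how groups and arrays enter.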

How the data were processed

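The authors deposited the scanner output of each array, which gives the intensity of 45018 spots (1639 controls) as pixel medians for spot and local background, read with Agilent Feature Extraction 10.7 (10.7.3.1 per the file headers). They also deposited a table of log2 values, used here as an alternative. Groups came from the sample titles. In limma 3.58.1 under R 4.3.3, intensities were corrected by normexp (offset 0), taken to log2 and brought to common quantiles across the 42 arrays. Controls were dropped, irregular spots became missing, and spots were averaged by probe and then probes by symbol. Genes entered a test if 1 of their probes was well above background on the 3 arrays of some set compared. Each of the 7 comparisons used its 12 arrays, lmFit and eBayes, with Benjamini-Hochberg adjustment over all genes and a threshold of 0.05. Values within a tissue and tissue differences came from tissue-by-group means. Those over both tissues came from a model with tissue and group as additive terms. The tissue comparison used all 42 arrays with group as a term. Slides were numbered 1 to 11. With 3 arrays a set, the number of arrays limits the precision, and p-values measure the spread between these samples.

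The genes named were all 10 members, up to 3 genes of each of 2 pathway lists with the largest change among those that passed in a comparison, and the 5 genes most correlated with Eln in aorta. One pathway gene that this rule would name is not reported here. The members and lists were chosen with earlier results of these data known. Alternatives were a normexp offset of 50, processed signals set to a common 75th percentile, quantiles made separately in each tissue, the authors' table, no filter, the brightest probe, slide as a random block, replicate number as a block, the fit of all 42 arrays without and with slides 1, 3 and 11 as a batch, those slides left out, the 6 arrays of a tissue alone, and each array left out. Single probes and within-slide differences of healthy and treated mice were added after the data were seen. Fits were tested on simulated data.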

Additional observations from a re-analysis of the deposited data

Results flagged for a closer look

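The change of Eln under huoxue differed between the tissues. The aorta difference from the macroangiopathy group minus the muscle difference was -1.33 on the log2 scale (adjusted p = 0.0102 in limma), with the 3 huoxue arrays below the 3 macroangiopathy arrays in aorta and above them in muscle. It passed in all 12 fits that left out 1 array, with values from -1.51 to -1.23, and in 8 of 10 other alternatives, the exceptions being the 2 fits of all 42 arrays. All huoxue muscle arrays were on slide 11, and no huoxue aorta array shared a slide with a macroangiopathy array, so slide and treatment cannot be told apart.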

How the results depend on the processing

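Counts of members called against healthy mice depended on the model, and every value here is a number of members out of 9. In diabetic aorta (1 called) the count was 0 with the processed signal, 0 with the authors' table, 2 with slide as a random block, 4 with all 42 arrays, 4 with the batch term, 2 without slides 1, 3 and 11, and 0 with the 6 aorta arrays alone. Over both tissues in diabetic mice (2 called) it was 1 with the brightest probe, 4 with all 42 arrays and 4 with the batch term. In diabetic muscle (1 called) it was 0 with quantiles within tissue, 0 with the slide block, and 2 with all 42 arrays, with the batch term and without those slides. In macroangiopathy aorta (3 called) it was 0 with the processed signal, 0 with the slide block, 1 without those slides and 0 with 6 arrays alone. Over both tissues (2 called) it was 1 with the brightest probe, 1 with the slide block, 4 with all 42 arrays and 4 with the batch term. In macroangiopathy muscle (1 called) it was 2 with all 42 arrays and 2 without those slides. The macroangiopathy tissue difference (0 called) gave 1 with all 42 arrays and 1 with the batch term. In huoxue muscle (1 called) the count was 2 with the processed signal, 2 with the authors' table, 0 with all 42 arrays, 0 with the batch term and 3 with 6 arrays alone, and the huoxue tissue difference (1 called) gave 0 with all 42 arrays and 0 with the batch term. Under rosiglitazone (0 called) the slide block gave 4 in aorta and 4 in the tissue difference, and 6 arrays alone gave 1 in muscle. In that slide block the within-slide correlation was estimated at -0.24, and no slide held arrays of both groups. A negative value narrows the standard error of a difference between slides, so these calls are not stronger evidence than the main fit. Leaving out 1 array gave 0 to 4 in diabetic aorta, 2 to 3 over both tissues and 0 to 1 in muscle. In the macroangiopathy group it gave 0 to 5 in aorta, 0 to 2 over both, 0 to 1 in muscle and 0 to 2 for the tissue difference. It gave 1 to 2 for the huoxue tissue difference, 0 to 3 for rosiglitazone aorta and for its tissue difference, and 6 to 8 between the tissues. Replicate numbers did not pair the arrays: correlations of same-numbered deviations ran from -0.52 to 0.59, and none of 14 sets had all over 0.1. With the replicate block the count was 0 in each of the 6 comparisons with healthy mice by tissue or over both. Mfap4 reversed in the macroangiopathy tissue difference, from 2.59 to -0.52 without slides 1, 3 and 11, and Fbn1 in rosiglitazone muscle, from -0.46 to 0.27 with the batch term. The causes were not tested. The processed-signal scaling moved the median of all genes by 0.15 in diabetic and 0.11 in macroangiopathy muscle. Fbn2, and Emilin1 in muscle, were limited by signal near background.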
